A study of Mus musculus with 72 samples.

Results

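Kruppel-like factors (KLFs) are zinc-finger transcription factors that bind GC-rich and CACCC sequences in promoters and enhancers. The members described here are Klf9, Klf6, Klf2, Klf4, Klf7, Klf10 and Klf13, which were taken by gene symbol from 3 deposited expression tables of mouse macrophages. These are 7 of 18472 genes listed in any of the tables, and 7 of 13 listed KLFs. The table of bone marrow-derived macrophages listed 6 members (no Klf2), the table of both dexamethasone experiments in RAW264.7 cells listed 5 (neither Klf2 nor Klf13), and the table of the interferon experiment listed all 7. Every listed member passed the filter on low values.

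The study measured polyadenylated RNA in 72 libraries, which form 24 groups of 3 libraries in 4 experiments. Its stated aims were to examine Setd1b, which interacts with the glucocorticoid receptor in the nucleus, and gene expression that depends on Setd1a. Setd1a and Setd1b are histone H3 lysine 4 methyltransferases. Marrow-derived macrophages came from C57BL/6J mice and were grown with L929 supernatant, a source of M-CSF and GM-CSF. They carried either the genotype label Setd1bKO or, in the control libraries, the genotype label Setd1bHet with wt in the title. They received 16 h of dexamethasone (Dex, 1 uM, a synthetic glucocorticoid) with bacterial lipopolysaccharide (LPS, 100 ng/ml) in the last 6 h, the same LPS with ethanol, or ethanol and PBS (vehicle). RAW264.7 cells, a macrophage line from male BALB/c mice, carried either a heterozygous deletion (Setd1aDel/+) or were wild type. An experiment with 16 h of Dex had the same treatments, and an experiment with 6 h of Dex also held Dex without LPS. In the interferon experiment both genotypes received interferon beta (IFNB1, 10 ng/ml) with LPS, or LPS, for 6 h. The labels name no clone number of the RAW264.7 genotypes and no driver of the Setd1b deletion.

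Mammalian KLFs share a DNA-binding domain of zinc fingers and differ in the cofactors they recruit. Klf9, Klf10 and Klf13 belong to a branch that binds the Sin3a corepressor, while Klf2, Klf4, Klf6 and Klf7 belong to a branch that recruits histone acetyltransferases and often activates transcription. In macrophages Klf2 and Klf4 are known as restraints on NF-kB driven inflammation and Klf6 as a promoter of it, and Klf9 is a textbook glucocorticoid target in several tissues. Klf10 was first described as a gene induced early by TGF-beta.

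Promoter sequences are shown for Klf9, which had a glucocorticoid response in every Dex comparison. Those of Klf6 and Klf4 are shown since their called Dex responses under LPS had opposite signs in marrow-derived and RAW264.7 cells. Each runs 5′ to 3′ in the direction of transcription, over 300 bases that begin upstream of the RefSeq start on GRCm38.p6 and end shortly after it. Capitals mark the GC box GGGCGG and the CACCC box on either strand. The Klf9 promoter is at chr19:23140976-23141275 on the + strand, that of Klf6 at chr13:5861239-5861538 on the + strand, and that of Klf4 at chr4:55532426-55532725 on the - strand.
Klf9: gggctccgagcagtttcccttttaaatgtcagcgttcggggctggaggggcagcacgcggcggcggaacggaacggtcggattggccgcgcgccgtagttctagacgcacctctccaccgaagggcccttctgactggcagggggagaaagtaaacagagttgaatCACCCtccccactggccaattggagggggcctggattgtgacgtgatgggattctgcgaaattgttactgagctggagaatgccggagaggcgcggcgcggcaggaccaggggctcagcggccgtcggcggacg
Klf6: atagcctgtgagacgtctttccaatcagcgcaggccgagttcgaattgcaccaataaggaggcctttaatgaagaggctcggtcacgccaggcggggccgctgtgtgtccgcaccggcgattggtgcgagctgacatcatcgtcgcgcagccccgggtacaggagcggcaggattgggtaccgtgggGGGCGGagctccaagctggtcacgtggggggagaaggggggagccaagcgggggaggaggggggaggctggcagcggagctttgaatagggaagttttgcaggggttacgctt
Klf4: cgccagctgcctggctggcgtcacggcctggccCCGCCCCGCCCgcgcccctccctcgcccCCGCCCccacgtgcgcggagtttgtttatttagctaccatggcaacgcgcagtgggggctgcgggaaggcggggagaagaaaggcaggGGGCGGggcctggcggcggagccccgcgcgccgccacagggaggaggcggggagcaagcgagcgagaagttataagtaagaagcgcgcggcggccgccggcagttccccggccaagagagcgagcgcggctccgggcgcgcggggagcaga

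A promoter entry was matched for 6 of the 7 members. The GC box was present in 5 of these 6 and in 35.66% of the 32851 promoters of the same length. The CACCC box was present in 4 of 6 and in 57.52% of promoters, and the core ACANNNTGT of the glucocorticoid response element in 0 of 6 and in 6.85%. Klf4 had 4 GC boxes, Klf6 had 1, and Klf9 had 0 GC boxes and 1 CACCC box. The absence of these letters from a window this short says nothing of where the receptor binds. On GRCm38 the genes lie at chr19:23141226-23168134 (Klf9), chr15:38291463-38300706 (Klf10), chr7:63886351-63938915 (Klf13), chr13:5861482-5870394 (Klf6), chr4:55527143-55532466 (Klf4), chr8:72319033-72321656 (Klf2) and chr1:64029447-64122282 (Klf7).

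The listed values of a library summed to between 837032 and 912839 TPM, a unit of transcript abundance that allows for length and is scaled within a library. Replicates had Pearson correlations of at least 0.9885 over genes, and the number of reads is unknown. All 9 macrophage markers were listed and above 1 TPM in marrow-derived cells. The RAW264.7 Dex experiments listed 8 of 9, all above 1 TPM, and in the interferon experiment 8 of 9 listed markers were above 1 TPM. Few genes listed for the Dex experiments failed the filter on low values (9159 of 9179 passed in marrow-derived cells), so a listed marker was seldom low. Markers of other cell types were not listed or low. The highest was the 1 listed of 3 endothelial markers in marrow-derived cells, at 7.62 to 8.37 TPM in control cells with LPS. In cells labelled Setd1bKO with LPS that marker was at 2.15 to 2.6 TPM. The targeted gene was not lower in the libraries labelled Setd1bKO: Setd1b was at 9.65 to 10.3 TPM in their vehicle group, against 3.80 to 5.13 TPM in control cells, and was not called under LPS (0.20 on the log2 scale) or under Dex with LPS (0.13). Setd1a was lower in Setd1aDel/+ cells in all 3 treatments at 16 h (log2 changes from -0.70 to -0.61) and in the interferon experiment with IFNB1 and LPS (-1.10) and with LPS (-0.56), and was not called at 6 h (-0.62 to -0.38). Macrophage marker sums moved with genotype, most of all in the 16 h vehicle groups, with 23140 to 24250 TPM in Setd1aDel/+ cells, against 2711 to 3140 TPM in wild-type cells. In marrow-derived vehicle groups they were 24860 to 25630 TPM in cells labelled Setd1bKO, against 38910 to 39840 TPM in control cells. The part of these shifts in the genotype results was not tested. In such bulk libraries, fewer cells of a type and less RNA per cell cannot be told apart.

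Changes below are differences of log2(TPM + 1) with their standard error from limma, fitted on 3 libraries per group, and called means that the p adjusted by Benjamini-Hochberg over all genes tested was under 0.05. The pseudocount makes a change of a low gene smaller than its TPM ratio. Klf6 was the most abundant member in every marrow-derived group, with means from 96.3 to 225.8 TPM, and the other members had means from 0.785 to 29.8 TPM there. In RAW264.7 cells Klf6 differed widely between experiments. Its wild-type vehicle mean was 4.05 ± 0.278 TPM at 16 h and 30.4 ± 1.20 TPM at 6 h (SD, n = 3 each), so the experiments differ in more than the length of Dex.

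The first question was how glucocorticoid acts on the KLFs of LPS-treated macrophages. Klf9 rose in all 6 comparisons of Dex with LPS over LPS, by 1.21 to 2.38 on the log2 scale. Klf4 rose in marrow-derived cells and fell in most RAW264.7 comparisons, while Klf6 fell in marrow-derived cells and rose in 3 of 4 RAW264.7 comparisons. Klf7 was not called in any of the 6, except under scaling in wild-type cells at 16 h, and Klf10 rose in 3 of 4 RAW264.7 comparisons and was not called in marrow-derived cells.

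The share of members called was compared with that of all genes. In cells labelled Setd1bKO 3 of 6 members were called (2 higher, 1 lower; 52.7% of all genes) and in control cells also 3 of 6 (2 higher, 1 lower; 59.9% of all genes). At 16 h, 3 of 5 members were called in Setd1aDel/+ cells (2 higher, 1 lower; 44.7% of all genes) and 3 of 5 in wild-type cells, all higher (47.6% of all genes). At 6 h, 4 of 5 were called in Setd1aDel/+ cells (3 higher, 1 lower; 32.9% of all genes) and 3 of 5 in wild-type cells (2 higher, 1 lower; 25.3% of all genes). These shares lie near the background in the marrow-derived cells. The median change of the members lay between 0.09 and 0.44 across the 6 comparisons, and that of all genes between 0.04 and 0.18.

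Klf9, a Sin3a-binding repressor, was at 22.9, 32.6 and 30.2 TPM with Dex and LPS, 8.28, 9.19 and 11.3 TPM with LPS, and 15.3, 13.4 and 11.5 TPM with vehicle in cells labelled Setd1bKO. In control cells it was at 29.1, 31.2 and 29.1 TPM with Dex and LPS, 4.74, 4.47 and 5.55 TPM with LPS, and 11.2, 11.9 and 11.7 TPM with vehicle. In each genotype the 3 treatments did not overlap, with LPS lowest, vehicle between and Dex with LPS highest. Relative to LPS, Dex raised Klf9 by 1.48 ± 0.13 in cells labelled Setd1bKO (adjusted p = 2.1e-07 in limma) and by 2.38 ± 0.13 in control cells (4.74e-10). The authors' deposited table gives Klf9 log2 fold changes of 1.38 in cells labelled Setd1bKO and 2.38 in control cells. The levels under Dex with LPS overlapped between the genotypes, and those under LPS did not.

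In the 16 h RAW264.7 experiment Klf9 was at 13.7, 13.6 and 13.6 TPM with Dex and LPS, 5.43, 5.23 and 5.29 TPM with LPS, and 10.9, 12.8 and 10.9 TPM with vehicle in Setd1aDel/+ cells. Wild-type cells held 10.6, 10.5 and 10.8 TPM with Dex and LPS, 3.43, 3.06 and 2.53 TPM with LPS, and 8.97, 9.09 and 8.53 TPM with vehicle. The order of treatments was that of the marrow-derived cells. Dex raised Klf9 by 1.21 ± 0.07 in Setd1aDel/+ cells and by 1.55 ± 0.07 in wild-type cells.

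In the 6 h experiment Klf9 was at 50.3, 56.4 and 46.0 TPM with Dex, 21.0, 21.6 and 20.0 TPM with Dex and LPS, 3.15, 3.32 and 3.70 TPM with LPS, and 11.5, 11.0 and 12.4 TPM with vehicle in Setd1aDel/+ cells. Wild-type cells held 49.8, 51.5 and 48.8 TPM with Dex, 27.1, 24.2 and 20.5 TPM with Dex and LPS, 4.42, 3.99 and 4.06 TPM with LPS, and 12.1, 12.1 and 12.8 TPM with vehicle. All 4 treatments were apart in each genotype. Dex alone was highest, Dex with LPS next, vehicle below these and LPS lowest. Under LPS, Dex raised Klf9 by 2.32 ± 0.08 in Setd1aDel/+ cells and by 2.27 ± 0.08 in wild-type cells, which exceeded the changes of the other 4 listed members.

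**Figure D1:**
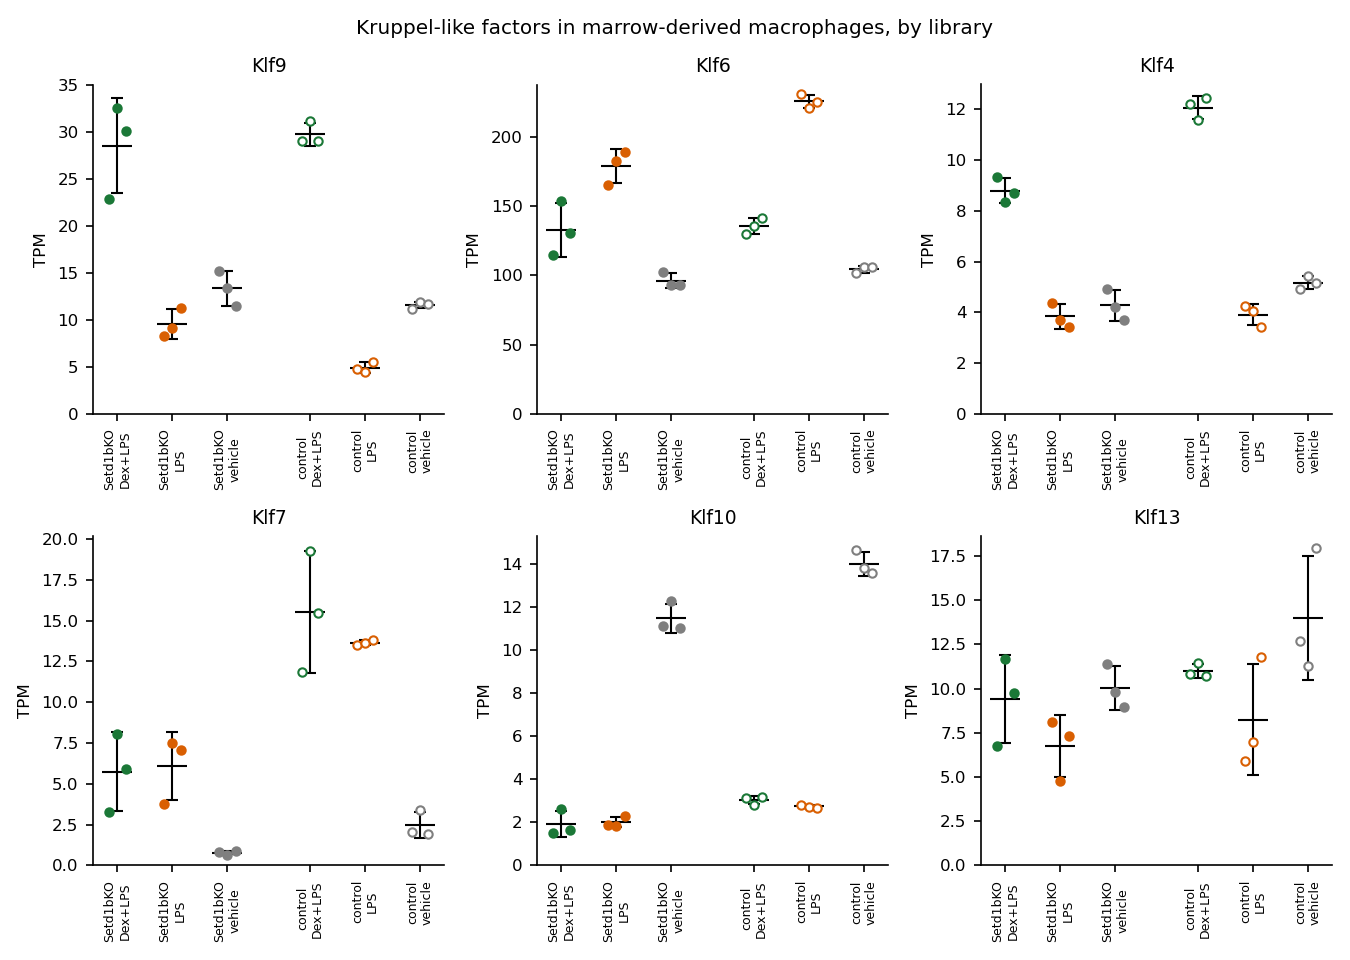
Klf levels in marrow-derived macrophages, in TPM, by treatment. Points are libraries (filled, labelled Setd1bKO; open, control), bars are group means and error bars SD over 3 libraries. Klf9 is highest under Dex with LPS in both genotypes (28.6 ± 5.05 TPM in cells labelled Setd1bKO and 29.8 ± 1.22 TPM in control cells), and Klf10 is high in vehicle groups.

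Klf4, an acetyltransferase-binding factor known in macrophages for alternative activation, was at 9.32, 8.34 and 8.70 TPM with Dex and LPS and 4.37, 3.71 and 3.44 TPM with LPS in cells labelled Setd1bKO. Control cells held 12.2, 11.6 and 12.4 TPM with Dex and LPS and 4.24, 4.04 and 3.43 TPM with LPS. Dex raised Klf4 in both genotypes, with no overlap, by 1.02 ± 0.09 in cells labelled Setd1bKO and by 1.42 ± 0.09 in control cells. In RAW264.7 cells the change had the other sign. At 16 h Klf4 was at 2.05, 2.01 and 1.98 TPM with Dex and LPS and 2.87, 3.52 and 3.54 TPM with LPS in Setd1aDel/+ cells, a fall of 0.51 ± 0.08, while wild-type cells held 0.974, 0.670 and 1.07 TPM with Dex and LPS and 1.12, 1.09 and 1.05 TPM with LPS, which was not called (-0.14 ± 0.08). At 6 h it was at 7.67, 7.96 and 8.09 TPM with Dex and LPS and 12.0, 11.7 and 12.8 TPM with LPS in Setd1aDel/+ cells, and fell by 0.56 ± 0.08. Wild-type cells held 8.45, 7.69 and 8.78 TPM with Dex and LPS and 10.3, 10.4 and 9.38 TPM with LPS. There the change of -0.24 ± 0.08 was called with an adjusted p of 0.032 in limma, and the call was lost when any of 4 of the 6 libraries was left out.

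Klf6, a factor of the same branch, was at 115, 154 and 131 TPM with Dex and LPS and 166, 183 and 189 TPM with LPS in cells labelled Setd1bKO. Control cells held 130, 135 and 141 TPM with Dex and LPS and 231, 221 and 225 TPM with LPS. The treatments did not overlap in either genotype, and Dex lowered Klf6, with changes of -0.43 ± 0.08 in cells labelled Setd1bKO and -0.73 ± 0.08 in control cells. At 6 h in RAW264.7 cells Klf6 was at 92.0, 87.0 and 84.1 TPM with Dex and LPS and 61.0, 59.7 and 59.4 TPM with LPS in Setd1aDel/+ cells, and at 60.0, 56.7 and 57.3 TPM with Dex and LPS and 38.9, 39.0 and 35.9 TPM with LPS in wild-type cells. Dex raised it by 0.54 ± 0.05 in Setd1aDel/+ cells and by 0.60 ± 0.05 in wild-type cells. At 16 h the change was not called in Setd1aDel/+ cells (0.09 ± 0.06). In wild-type cells it was 0.18 ± 0.06 and called in limma with an adjusted p of 0.016, a call lost under median-of-ratios scaling of the libraries (0.08, adjusted p = 0.25 in limma), without replicate 2 of Dex with LPS (0.16) and without replicate 2 of LPS (0.14). For this comparison of Klf6 the authors' deposited table gives a log2 fold change of 0.084 with an adjusted p of 0.443. A test of the difference between marrow-derived and RAW264.7 cells was not made, since cell type and experiment cannot be told apart.

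Klf10 rose under Dex with LPS by 0.28 ± 0.08 in Setd1aDel/+ cells and 0.34 ± 0.08 in wild-type cells at 16 h, and by 0.44 ± 0.08 at 6 h in Setd1aDel/+ cells. At a pseudocount of 0.1 the first of these Klf10 values was 0.45. The 6 h change in wild-type cells, 0.12 ± 0.08, was not called, nor were those in marrow-derived cells. Without replicate 3 of Dex with LPS the wild-type value was 0.23 and called. In cells labelled Setd1bKO Klf10 was called without replicate 2 of Dex with LPS (-0.22). Klf7 changes ranged from -0.26 to 0.15. The lowest, in wild-type cells at 16 h, was called under median-of-ratios scaling (-0.36, adjusted p = 0.047 in limma), and the authors' deposited table gives it a log2 fold change of -0.404 with an adjusted p of 0.0442. The changes of Klf13 in marrow-derived cells were 0.42 ± 0.23 in cells labelled Setd1bKO and 0.43 ± 0.23 in control cells, not called. Klf13 was called without replicate 1 of Dex with LPS in cells labelled Setd1bKO (0.62) and without replicate 3 of LPS in control cells (0.69).

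**Figure D2:**
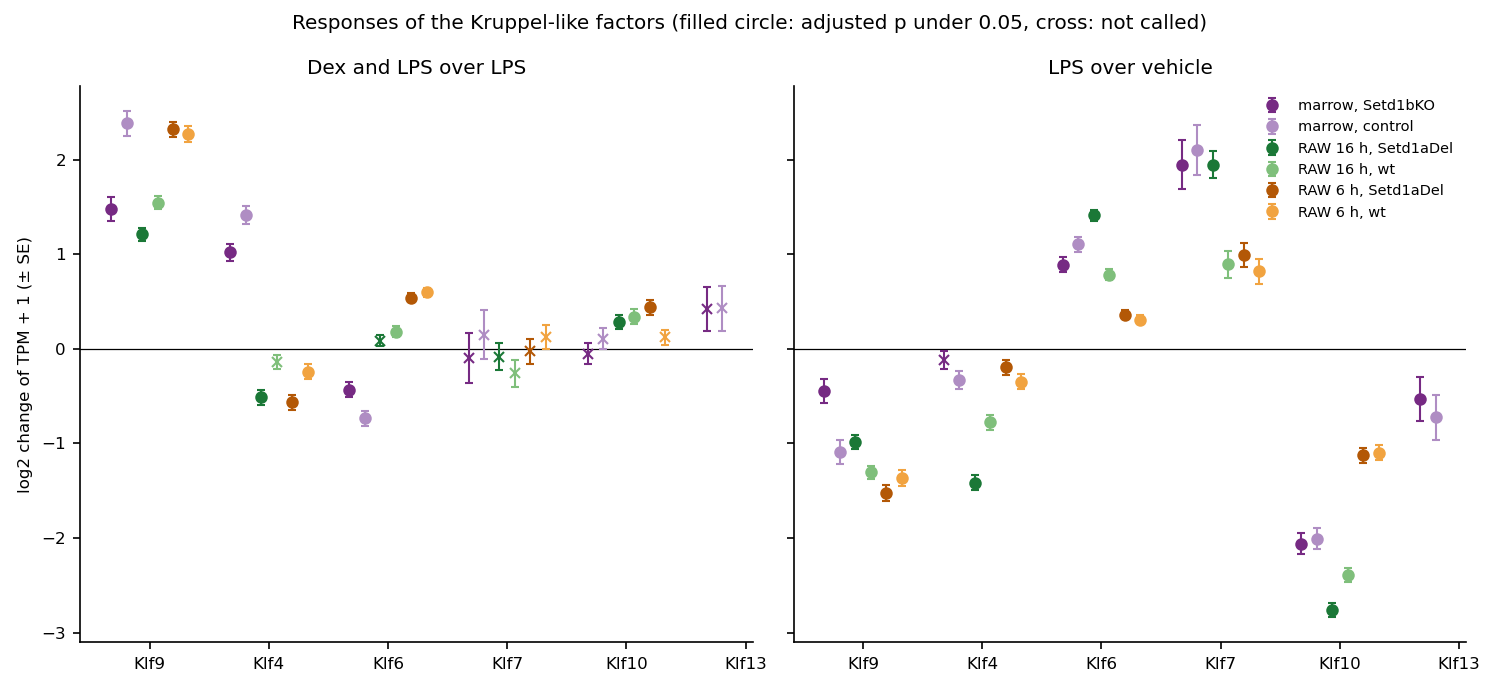
Log2 changes of the members, with SE, for Dex with LPS over LPS (left) and LPS over vehicle (right), by experiment and genotype. Circles are called changes and crosses are not. Klf9 lies above 0 in every Dex comparison (1.21 to 2.38) and below 0 in every LPS comparison (-1.52 to -0.44).

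Dex without LPS was measured at 6 h in RAW264.7 cells. Klf9 and Klf6 rose and Klf10 fell in both genotypes. In Setd1aDel/+ cells 4 of 5 members were called (3 higher, 1 lower; 30.2% of all genes) and in wild-type cells 4 of 5 (3 higher, 1 lower; 36.8% of all genes). Klf9 rose by 2.04 ± 0.08 in Setd1aDel/+ cells and by 1.94 ± 0.08 in wild-type cells. Klf6 was at 94.2, 88.2 and 88.2 TPM with Dex and 48.4, 44.1 and 47.1 TPM with vehicle in Setd1aDel/+ cells, and at 62.1, 62.2 and 59.3 TPM with Dex and 29.1, 31.1 and 31.2 TPM with vehicle in wild-type cells. These groups did not overlap, and the changes were 0.94 ± 0.05 in Setd1aDel/+ cells and 0.99 ± 0.05 in wild-type cells. Klf4 rose in Setd1aDel/+ cells (0.34 ± 0.08) and was at 0.15 ± 0.08, not called, in wild-type cells, where it was 0.25 and called without replicate 3 of Dex. Klf10 changed by -0.22 ± 0.08 in Setd1aDel/+ cells and by -0.47 ± 0.08 in wild-type cells. The Klf10 call in Setd1aDel/+ cells was lost under scaling (-0.21) and when any of 5 of the 6 libraries was left out. Klf7 was at -0.05 ± 0.13, not called, in Setd1aDel/+ cells and rose by 0.45 ± 0.13 in wild-type cells, a call lost without replicate 2 of vehicle (0.36). The difference between the genotypes was not called for any of the 5 members (0.29% of all genes), with 2 at an unadjusted p under 0.05.

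LPS given with Dex was set against Dex alone in the same experiment. Klf9, Klf4 and Klf10 fell and Klf7 rose in both genotypes, while Klf6 was at -0.04 in Setd1aDel/+ cells and -0.08 in wild-type cells and was not called. In Setd1aDel/+ cells 4 of 5 members were called (64.7% of all genes) and in wild-type cells 4 of 5 (66.8% of all genes), in each case 1 higher and 3 lower. Klf9 fell by 1.24 ± 0.08 in Setd1aDel/+ cells and 1.04 ± 0.08 in wild-type cells, and Klf4 by 1.10 ± 0.08 in Setd1aDel/+ cells and 0.74 ± 0.08 in wild-type cells. Klf4 had 17.4, 20.0 and 16.8 TPM with Dex in Setd1aDel/+ cells and 15.3, 15.9 and 12.5 TPM in wild-type cells, above all libraries that had Dex and LPS.

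Whether the response to Dex differed with and without LPS was tested as a difference of the 2 Dex changes. For this contrast 3 of 5 members were called in Setd1aDel/+ cells (1 higher, 2 lower; 30.1% of all genes) and 4 of 5 in wild-type cells (2 higher, 2 lower; 30.4% of all genes). Klf6 gave -0.40 ± 0.07 in Setd1aDel/+ cells and -0.39 ± 0.07 in wild-type cells, a smaller rise with LPS present. Klf4 gave -0.90 ± 0.11 in Setd1aDel/+ cells and -0.39 ± 0.11 in wild-type cells, and Klf10 0.66 ± 0.11 in Setd1aDel/+ cells and 0.59 ± 0.11 in wild-type cells. The Klf9 value was 0.28 ± 0.12, not called, in Setd1aDel/+ cells and 0.33 ± 0.12 in wild-type cells. That Klf9 call was lost when any of 10 of the 12 libraries was left out and under scaling (0.27), while the Setd1aDel/+ value was called at a pseudocount of 0.1 (0.47) and without replicate 2 of Dex (0.36).

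The Dex response at 16 h was set against that at 6 h in 1 joint fit of both RAW264.7 experiments. Klf9 and Klf6 had smaller responses at 16 h in both genotypes. In Setd1aDel/+ cells 2 of 5 members were called (19.2% of all genes) and in wild-type cells 2 of 5 (13.5% of all genes), all lower. The Klf9 difference was -1.11 ± 0.11 in Setd1aDel/+ cells and -0.72 ± 0.11 in wild-type cells. That of Klf6 was -0.45 ± 0.07 in Setd1aDel/+ cells and -0.42 ± 0.07 in wild-type cells. The length of Dex and the experiment cannot be told apart here.

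**Figure D3:**
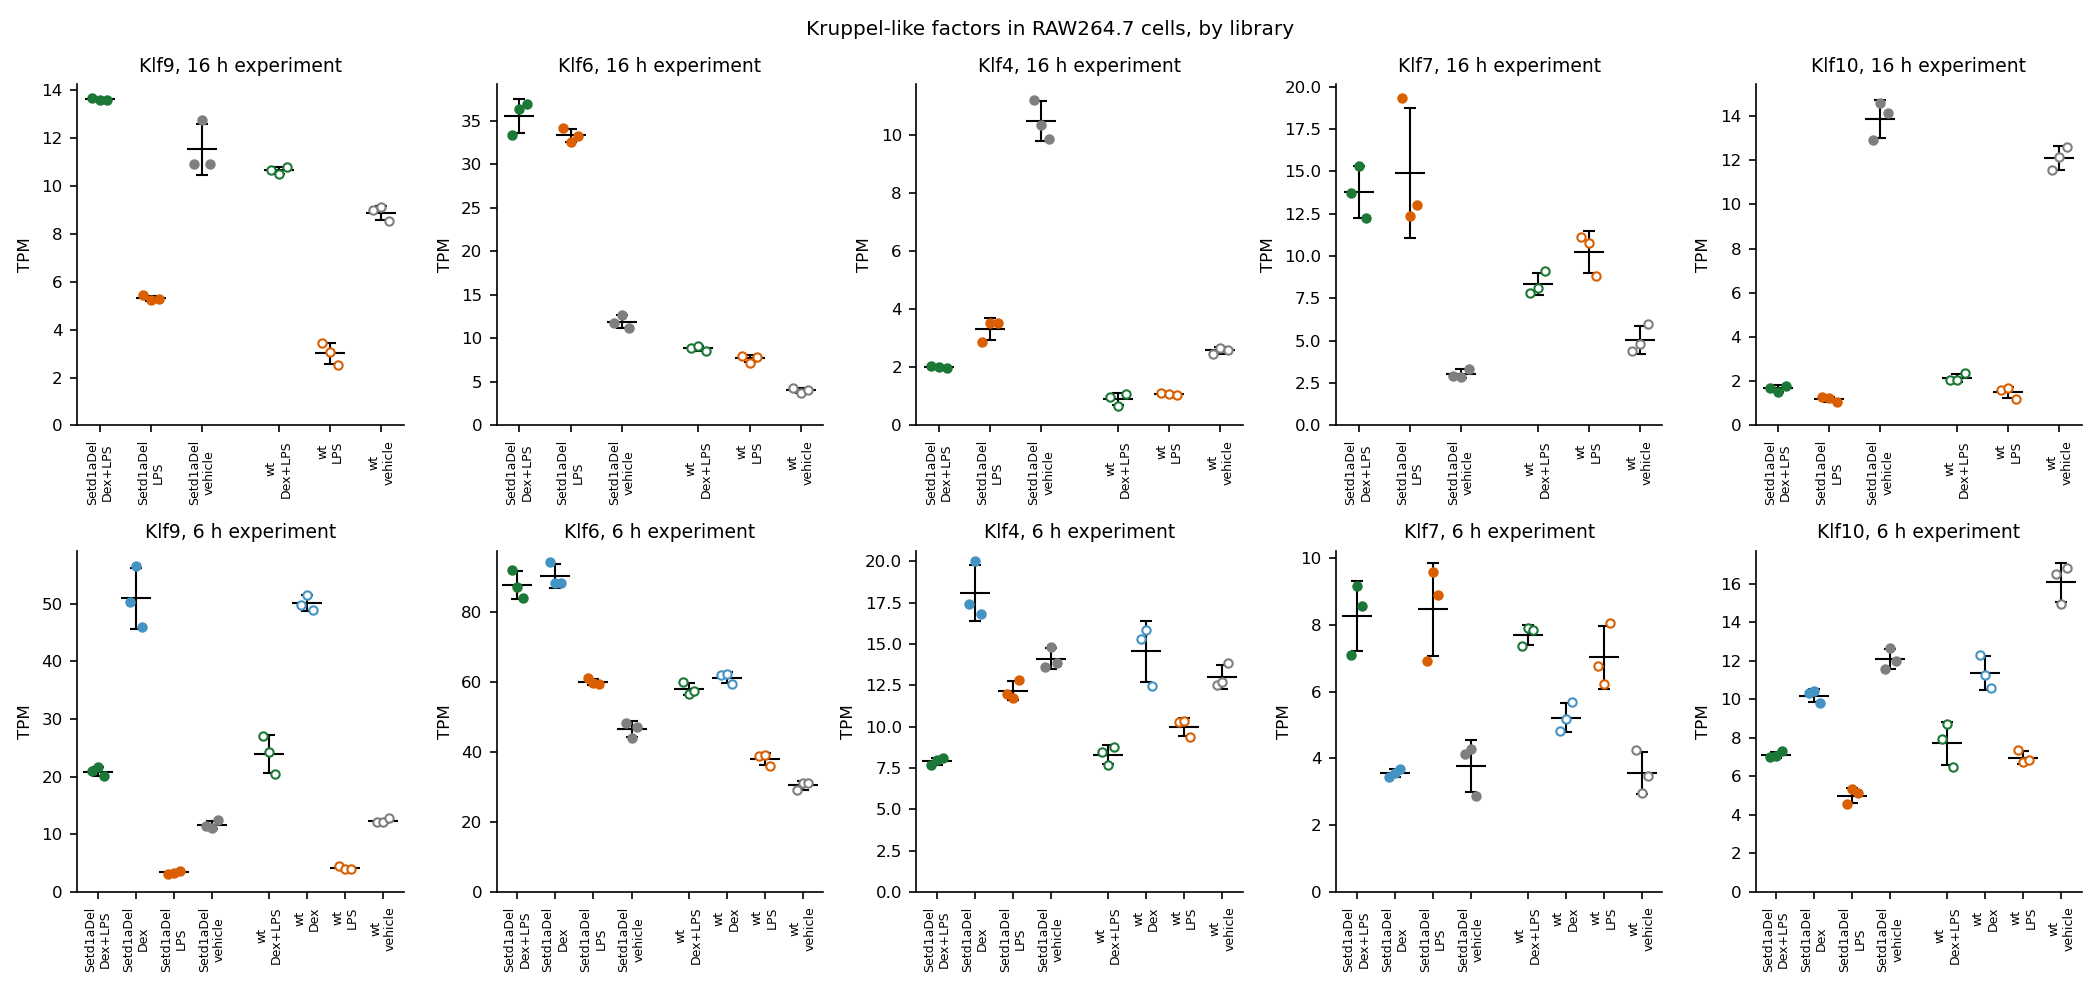
Levels of the 5 listed members in RAW264.7 cells, in TPM, by treatment in the 16 h and 6 h experiments. Filled points are Setd1aDel/+ libraries and open points wild-type libraries, with the mean as a bar and SD over 3 libraries. With Dex alone Klf9 averaged 50.9 ± 5.26 TPM in Setd1aDel/+ cells and 50.03 ± 1.38 TPM in wild-type cells, and Klf6 was higher in Setd1aDel/+ cells in all 7 treatment groups.

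LPS over vehicle asked what endotoxin does to the same factors. Klf7 and Klf6 rose, and Klf9 and Klf10 fell, in all 6 comparisons, although under median-of-ratios scaling the fall of Klf9 in cells labelled Setd1bKO was not called. Klf10 changed by -2.76 to -1.10, the largest falls among the members in marrow-derived cells and at 16 h, and Klf7 the largest rises in marrow-derived cells, by 1.95 in cells labelled Setd1bKO and 2.10 in control cells. The listed genes as a whole also shifted downward in TPM with LPS, with median changes from -0.49 to -0.21, and changes relative to these medians are given where they bear on a call.

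With LPS, 5 of 6 members were called in cells labelled Setd1bKO (2 higher, 3 lower; 83.1% of all genes) and 6 of 6 in control cells (2 higher, 4 lower; 85.3% of all genes). At 16 h all 5 listed members were called in Setd1aDel/+ cells (84.8% of all genes) and in wild-type cells (83.5% of all genes), each with 2 higher and 3 lower. At 6 h all 5 were called in Setd1aDel/+ cells (69.6% of all genes) and in wild-type cells (71.8% of all genes), again 2 higher and 3 lower. Most genes were called in each of these comparisons, so the counts do not set the members apart.

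Klf10, also known as TGF-beta-inducible early gene, was at 1.89, 1.84 and 2.28 TPM with LPS and 11.1, 12.3 and 11.0 TPM with vehicle in cells labelled Setd1bKO, and at 2.80, 2.74 and 2.69 TPM with LPS and 14.7, 13.8 and 13.6 TPM with vehicle in control cells. No library overlapped, and Klf10 changed by -2.06 ± 0.11 in cells labelled Setd1bKO and by -2.00 ± 0.11 in control cells. At 16 h in RAW264.7 cells it was at 1.27, 1.26 and 1.06 TPM with LPS and 12.9, 14.6 and 14.1 TPM with vehicle in Setd1aDel/+ cells, and at 1.61, 1.69 and 1.21 TPM with LPS and 11.5, 12.1 and 12.6 TPM with vehicle in wild-type cells. The changes were -2.76 ± 0.08 in Setd1aDel/+ cells and -2.39 ± 0.08 in wild-type cells. At 6 h it was at 4.57, 5.32 and 5.12 TPM with LPS and 11.6, 12.6 and 12.0 TPM with vehicle in Setd1aDel/+ cells, and at 7.35, 6.73 and 6.85 TPM with LPS and 16.5, 14.9 and 16.8 TPM with vehicle in wild-type cells. The changes were -1.13 ± 0.08 in Setd1aDel/+ cells and -1.10 ± 0.08 in wild-type cells. The difference in LPS response between the experiments was not tested.

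Klf9 changed by -0.44 ± 0.13 with LPS in cells labelled Setd1bKO and by -1.09 ± 0.13 in control cells. The value labelled Setd1bKO lay close to the median of all genes (-0.07 relative to it), and its call was lost under median-of-ratios scaling (-0.08, adjusted p = 0.52 in limma). The control value of Klf9 was -0.62 under scaling and still called. In RAW264.7 cells Klf9 fell by 0.99 ± 0.07 in Setd1aDel/+ and 1.31 ± 0.07 in wild-type cells at 16 h, and by 1.52 ± 0.08 in Setd1aDel/+ and 1.37 ± 0.08 in wild-type cells at 6 h. Under scaling the 16 h Setd1aDel/+ value of Klf9 was -0.59. Klf13, a related repressor, had overlapping groups in control cells, with 5.93, 6.99 and 11.8 TPM under LPS and 12.7, 11.3 and 17.98 TPM under vehicle. In cells labelled Setd1bKO it had 8.13, 4.75 and 7.34 TPM under LPS and 11.4, 9.79 and 8.94 TPM under vehicle, which did not overlap. Its change was -0.53 ± 0.23 in cells labelled Setd1bKO (adjusted p = 0.046 in limma) and -0.72 ± 0.23 in control cells (0.0093). Both calls were lost under scaling, with -0.18 in cells labelled Setd1bKO and -0.24 in control cells. The control call of Klf13 was also lost without replicate 1 of LPS (-0.54) or replicate 3 of vehicle (-0.54), and the other call when any of 4 libraries was left out.

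Klf7, a factor studied mostly in neurons and fat, was at 3.73, 7.51 and 7.07 TPM with LPS and 0.846, 0.649 and 0.861 TPM with vehicle in cells labelled Setd1bKO. Control cells held 13.5, 13.6 and 13.8 TPM with LPS and 2.06, 3.41 and 1.95 TPM with vehicle. LPS groups lay above vehicle groups without overlap. Klf7 was at 19.3, 12.3 and 13.04 TPM with LPS and 2.92, 2.88 and 3.36 TPM with vehicle in Setd1aDel/+ cells at 16 h, and at 11.1, 10.8 and 8.80 TPM with LPS and 4.40, 4.79 and 5.99 TPM with vehicle in wild-type cells. It rose by 1.95 ± 0.14 in Setd1aDel/+ cells and 0.89 ± 0.14 in wild-type cells, and at 6 h by 0.99 ± 0.13 in Setd1aDel/+ cells and 0.82 ± 0.13 in wild-type cells.

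Klf6 was at 103, 93.3 and 92.9 TPM with vehicle in cells labelled Setd1bKO and 102, 106 and 106 TPM in control cells, below every LPS library of its genotype. It rose by 0.89 ± 0.08 in cells labelled Setd1bKO and by 1.10 ± 0.08 in control cells. At 16 h Klf6 was at 34.1, 32.6 and 33.3 TPM with LPS and 11.8, 12.7 and 11.2 TPM with vehicle in Setd1aDel/+ cells, and at 7.97, 7.22 and 7.89 TPM with LPS and 4.27, 3.74 and 4.13 TPM with vehicle in wild-type cells. The rises were 1.41 ± 0.06 in Setd1aDel/+ cells and 0.79 ± 0.06 in wild-type cells. At 6 h Klf6 rose by 0.36 ± 0.05 in Setd1aDel/+ cells and 0.31 ± 0.05 in wild-type cells, and under scaling these values were 0.58 and 0.56.

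Klf4 was at 4.91, 4.23 and 3.68 TPM with vehicle in cells labelled Setd1bKO, where the change of -0.12 ± 0.09 was not called, and at 4.91, 5.43 and 5.15 TPM with vehicle in control cells, where it was -0.33 ± 0.09 and called. Relative to the median of all genes the control value of Klf4 was 0.16, and under scaling its sign turned (0.11, adjusted p = 0.32 in limma). At 16 h it was at 11.2, 10.4 and 9.85 TPM with vehicle in Setd1aDel/+ cells and 2.46, 2.68 and 2.60 TPM in wild-type cells, and fell by 1.41 ± 0.08 in Setd1aDel/+ cells and 0.78 ± 0.08 in wild-type cells. The wild-type value of Klf4 was -1.17 at a pseudocount of 0.1 and -0.51 under scaling. At 6 h the vehicle values were 13.6, 14.8 and 13.8 TPM in Setd1aDel/+ cells and 12.5, 12.7 and 13.8 TPM in wild-type cells, with changes of -0.20 ± 0.08 in Setd1aDel/+ cells and -0.35 ± 0.08 in wild-type cells. Both 6 h calls of Klf4 were lost under scaling, with 0.0065, a turned sign, in Setd1aDel/+ cells and -0.11 in wild-type cells. The Setd1aDel/+ call was also lost when any of 4 of the 6 libraries was left out.

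Dex with LPS was also set against vehicle, to show the level that both agents left. Klf9 and Klf6 stood above vehicle and Klf10 below it in both genotypes of both experiments. In marrow-derived cells 5 of 6 members were called in cells labelled Setd1bKO (4 higher, 1 lower; 78.5% of all genes) and 5 of 6 in control cells (4 higher, 1 lower; 80.0% of all genes). At 16 h all 5 were called in Setd1aDel/+ cells (82.0% of all genes) and in wild-type cells (78.9% of all genes), each with 3 higher and 2 lower. Klf9 was higher by 1.04 ± 0.13 in cells labelled Setd1bKO and 1.29 ± 0.13 in control cells. At 16 h it was higher by 0.23 ± 0.07 in Setd1aDel/+ cells and 0.24 ± 0.07 in wild-type cells, and under scaling by 0.58 and 0.51. Klf4 was higher by 0.90 ± 0.09 in cells labelled Setd1bKO and 1.08 ± 0.09 in control cells, and changed by -1.93 ± 0.08 in Setd1aDel/+ cells and -0.92 ± 0.08 in wild-type cells. This last value was -1.44 at a pseudocount of 0.1. Klf10 under both agents was at 1.52, 2.64 and 1.64 TPM in cells labelled Setd1bKO and 3.12, 2.80 and 3.19 TPM in control cells, with changes against vehicle of -2.11 ± 0.11 in cells labelled Setd1bKO and -1.90 ± 0.11 in control cells.

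Genotype effects were asked in each treatment. In marrow-derived cells Klf7 was lower in cells labelled Setd1bKO in all 3 treatments, and Klf9 was higher under LPS. Of 6 members 1 was called in vehicle (lower; 25.3% of all genes), 4 with LPS (1 higher, 3 lower; 41.4% of all genes) and 3 with Dex and LPS (all lower; 35.0% of all genes). The medians of the members were -0.25, -0.28 and -0.33 in these treatments, and those of all genes were -0.02, 0.10 and 0.07.

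Klf7 had 3.26, 8.06 and 5.91 TPM under Dex with LPS in cells labelled Setd1bKO, against 11.8, 19.3 and 15.5 TPM in control cells. Its genotype changes were -1.34 ± 0.26 with Dex and LPS, -1.09 ± 0.26 with LPS and -0.94 ± 0.26 in vehicle, with no overlap in any treatment. The vehicle call of Klf7 was lost without replicate 2 of the group labelled Setd1bKO (-0.88) or replicate 2 of control (-0.75), and its value was -1.51 at a pseudocount of 0.1. Klf9 was higher with LPS by 0.83 ± 0.13 (adjusted p = 8.9e-05 in limma), and was at 0.18 ± 0.13 and -0.07 ± 0.13 in vehicle and with Dex and LPS, not called. Klf6 was lower with LPS (-0.34 ± 0.08), Klf4 with Dex and LPS (-0.42 ± 0.09) and Klf10 both with LPS (-0.32 ± 0.11) and with Dex and LPS (-0.48 ± 0.11). The LPS call of Klf10 was lost when any of 5 of the 6 libraries was left out. Its call with Dex and LPS was lost in a fit of the compared groups alone (adjusted p = 0.055 in limma). Klf13 was not called in any treatment (-0.42 to -0.23). Klf4 in vehicle (-0.23 ± 0.09) was called without replicate 1 of the group labelled Setd1bKO (-0.32).

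The difference of responses between these genotypes was tested as an interaction. For the LPS response 1 of 6 members was called (21.8% of all genes) and for the Dex response 1 of 6 (6.21% of all genes), in both cases Klf9. Its LPS response was higher by 0.65 ± 0.18 in cells labelled Setd1bKO (adjusted p = 0.017 in limma) and its Dex response lower, at -0.91 ± 0.18 (adjusted p = 0.0060 in limma). Both differences share the LPS groups, where Klf9 was at 9.60 ± 1.56 TPM in cells labelled Setd1bKO and 4.92 ± 0.564 TPM in control cells (SD, n = 3 each). Klf6 was called for both differences only under scaling (-0.36 for LPS and 0.33 for Dex) and, for Dex, without replicate 1 of Dex with LPS labelled Setd1bKO (0.40). The Klf4 difference for Dex was -0.40 ± 0.13 and not called.

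**Figure D4:**
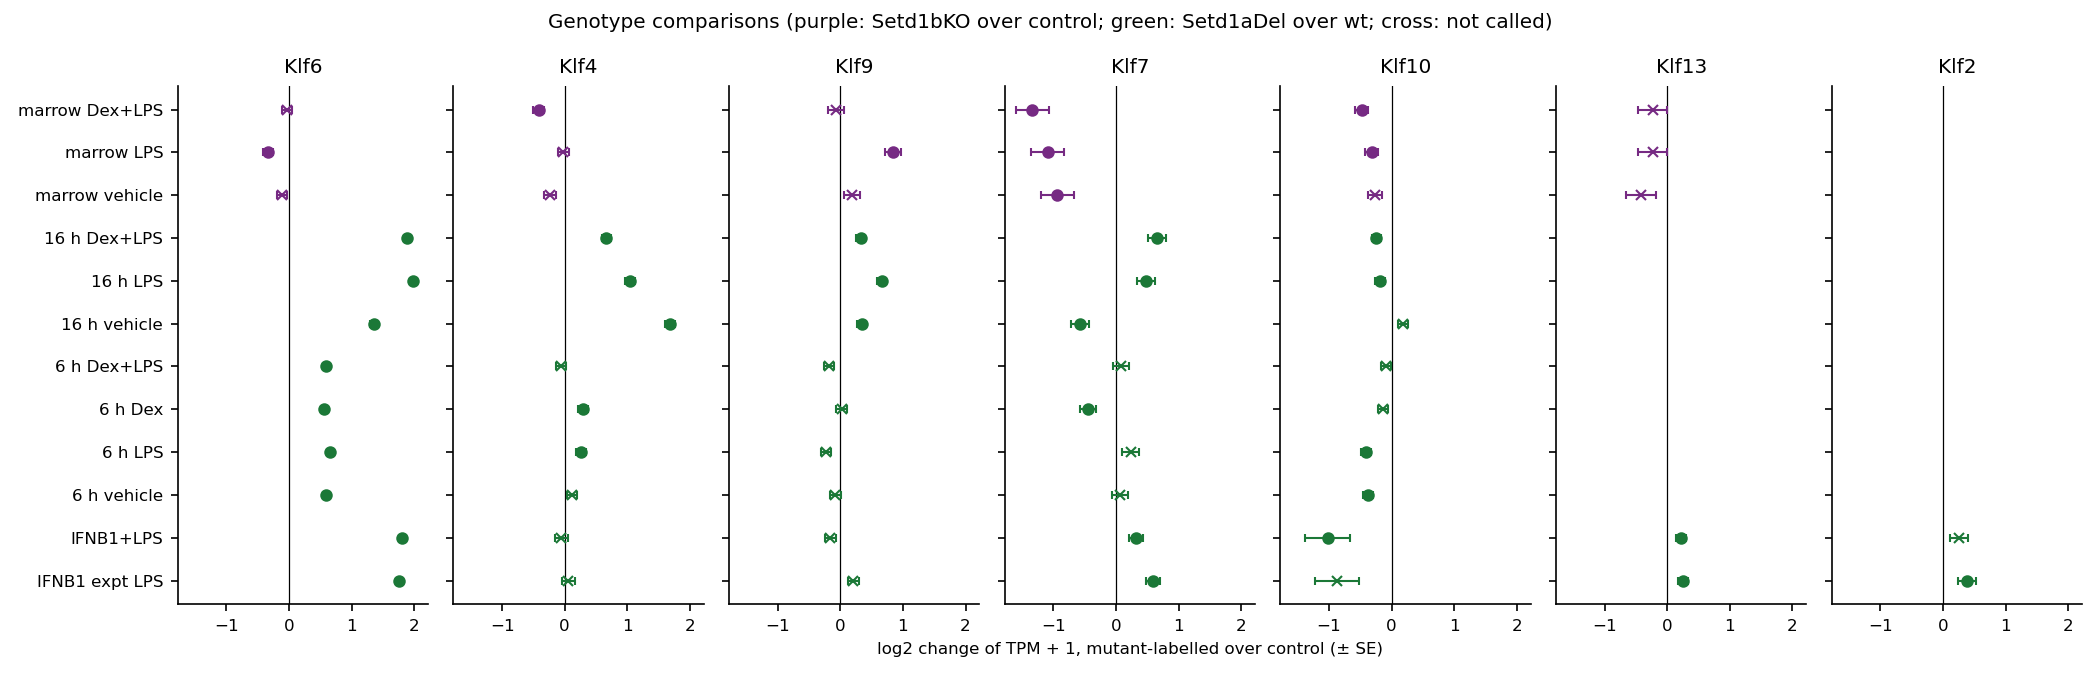
Log2 genotype changes of the members with SE, in each experiment and treatment. Purple marks cells labelled Setd1bKO over control and green Setd1aDel/+ over wild type. Klf6 lies above 0 in all 9 RAW264.7 treatments (0.55 to 1.98), and Klf7 below 0 in all 3 marrow-derived ones (-1.34 to -0.94).

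In RAW264.7 cells Klf6 was higher in Setd1aDel/+ cells in all 9 treatments of the 3 experiments, by 0.55 to 1.98, with no overlap in any of them. Klf4 was higher in 5 of 9, Klf9 in 3 of 9 and Klf10 lower in 5 of 9, and Klf7 was higher in 4 and lower in 2. Of the 5 members, 4 were called in 16 h vehicle (3 higher, 1 lower; 48.2% of all genes), 5 with LPS (4 higher, 1 lower; 59.9% of all genes) and 5 with Dex and LPS (4 higher, 1 lower; 64.6% of all genes). At 6 h, 2 were called in vehicle (1 higher, 1 lower; 22.2% of all genes) and 3 with LPS (2 higher, 1 lower; 21.5% of all genes). There were 1 called with Dex and LPS (higher; 26.2% of all genes) and 3 with Dex alone (2 higher, 1 lower; 13.6% of all genes).

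Klf6 under Dex with LPS at 16 h was at 33.3, 36.4 and 36.9 TPM in Setd1aDel/+ cells, against 8.85, 9.17 and 8.51 TPM in wild-type cells. The change was 1.89 ± 0.06, beside 1.98 ± 0.06 with LPS and 1.36 ± 0.06 in vehicle. At 6 h the changes of Klf6 lay between 0.55 ± 0.05 and 0.65 ± 0.05. Klf4 was higher in 16 h vehicle by 1.68 ± 0.08, with LPS by 1.04 ± 0.08 and with Dex and LPS by 0.67 ± 0.08 (1.09 at a pseudocount of 0.1), and at 6 h it was called with LPS (0.26 ± 0.08) and with Dex (0.30 ± 0.08). Each of these 6 h calls of Klf4 was lost without either of 2 libraries, replicate 3 of LPS in Setd1aDel/+ (0.23) or wild-type cells (0.22), and replicate 2 of Dex in Setd1aDel/+ cells (0.23) or replicate 3 in wild-type cells (0.20). Macrophage marker sums were higher in Setd1aDel/+ cells in all 3 treatments at 16 h, as given above for vehicle. At 6 h with LPS they were lower, at 7084 to 7589 TPM in Setd1aDel/+ cells, against 8059 to 8205 TPM in wild-type cells. In the other 6 h treatments they were higher in Setd1aDel/+ cells.

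Klf9 was higher in Setd1aDel/+ cells at 16 h by 0.34 ± 0.07 in vehicle, 0.66 ± 0.07 with LPS and 0.33 ± 0.07 with Dex and LPS, and was not called at 6 h, where its changes lay between -0.23 and 0.02. The 6 h value with LPS (-0.23) was called at a pseudocount of 0.1 (-0.29) and without replicate 3 of Setd1aDel/+ LPS (-0.28), and that with Dex and LPS (-0.18) without replicate 3 of wild-type Dex with LPS (-0.28). Klf7 was lower in 16 h vehicle (-0.57 ± 0.14), and higher with LPS (0.48 ± 0.14, or 0.29 and still called without replicate 1 of Setd1aDel/+ LPS) and with Dex and LPS (0.66 ± 0.14), with 13.7, 15.3 and 12.3 TPM in Setd1aDel/+ cells, against 7.83, 8.14 and 9.10 TPM in wild-type cells, in the last of these. With Dex alone at 6 h it was lower (-0.44 ± 0.13), a call lost when any of 5 of the 6 libraries was left out. Klf10 was lower at 16 h with LPS (-0.18 ± 0.08) and with Dex and LPS (-0.24 ± 0.08), and at 6 h in vehicle (-0.38 ± 0.08) and with LPS (-0.41 ± 0.08). Both 16 h calls of Klf10 were lost under scaling (-0.13 and -0.14). The LPS groups overlapped, and that call was lost when any of 5 of the 6 libraries was left out, and the other without replicate 2 of Setd1aDel/+ or replicate 3 of wild-type cells (-0.20 each). In vehicle Klf10 was at 0.18 ± 0.08, not called, and was called under scaling (0.25) and without replicate 1 of Setd1aDel/+ vehicle (0.23).

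At 16 h the LPS response differed between the genotypes for all 5 members (3 higher, 2 lower; 33.4% of all genes). The difference was 1.05 ± 0.20 for Klf7, 0.63 ± 0.08 for Klf6, 0.32 ± 0.10 for Klf9, -0.64 ± 0.11 for Klf4 and -0.37 ± 0.11 for Klf10. Thus Klf6 and Klf7 rose more and Klf4 and Klf10 fell more on this scale in Setd1aDel/+ cells, and Klf9 fell less. The Klf4 call did not hold at a pseudocount of 0.1 (-0.46, adjusted p = 0.056 in limma), and wild-type Klf4 was near 1 TPM with LPS. The Klf9 call was lost without replicate 1 or 3 of Setd1aDel/+ vehicle (0.29 each). It was also lost in a fit of the compared groups alone (adjusted p = 0.057 in limma). For the 16 h Dex response 2 of 5 members were called, both lower (10.6% of all genes): Klf9 at -0.34 ± 0.10 and Klf4 at -0.37 ± 0.11, each with an adjusted p of 0.041 in limma. The Klf9 call was lost under scaling (-0.29) and when any of 11 of the 12 libraries was left out, and the Klf4 call at a pseudocount of 0.1 (-0.42) and when any of 10 was left out. At 6 h 0 of 5 members were called by limma for the LPS response (5.6% of all genes) and 0 of 5 for the Dex response under LPS (5.29% of all genes), with 0 and 2 at an unadjusted p under 0.05. The difference between the 16 h and the 6 h interactions was not tested.

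IFNB1 added to LPS lowered Klf9 and Klf2 and raised Klf6 in both genotypes. In Setd1aDel/+ cells 4 of 7 members were called (1 higher, 3 lower; 54.1% of all genes) and in wild-type cells 3 of 7 (1 higher, 2 lower; 33.0% of all genes). Klf2, an acetyltransferase-binding factor known for keeping monocytes and endothelium quiescent, was at 2.6, 2.5 and 3.0 TPM with IFNB1 and LPS and 4.3, 5.2 and 5.3 TPM with LPS in Setd1aDel/+ cells. Wild-type cells held 2.7, 1.6 and 2.1 TPM with IFNB1 and LPS and 4.1, 3.6 and 3.0 TPM with LPS. The treatments did not overlap in either genotype, and Klf2 changed by -0.68 ± 0.14 in Setd1aDel/+ cells and by -0.55 ± 0.14 in wild-type cells. The authors' deposited table gives Klf2 log2 fold changes of -0.688 with an adjusted p of 0.0115 in Setd1aDel/+ cells and -0.665 with an adjusted p of 0.0724 in wild-type cells.

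Klf9 was at 3.1, 3.3 and 3.6 TPM with IFNB1 and LPS and 5.6, 6.9 and 6.3 TPM with LPS in Setd1aDel/+ cells, and at 3.7, 3.8 and 4.0 TPM with IFNB1 and LPS and 5.3, 5.1 and 5.4 TPM with LPS in wild-type cells. It fell by 0.74 ± 0.08 in Setd1aDel/+ cells and by 0.37 ± 0.08 in wild-type cells. Klf6 was at 55.5, 59.7 and 63.3 TPM with IFNB1 and LPS and 50.2, 50.7 and 48.8 TPM with LPS in Setd1aDel/+ cells, and at 16.3, 16.6 and 15.8 TPM with IFNB1 and LPS and 13.6, 13.9 and 14.7 TPM with LPS in wild-type cells. It rose by 0.25 ± 0.05 in Setd1aDel/+ cells (0.43 under scaling) and by 0.19 ± 0.05 in wild-type cells. Without replicate 1 of wild-type LPS the wild-type calls of Klf6 (0.17) and Klf2 (-0.47) were lost. Klf7 was lower in Setd1aDel/+ cells (-0.45 ± 0.11), with a call lost under scaling (-0.27), and at -0.18 ± 0.11, not called, in wild-type cells. Klf4 had 2.9 to 3.4 TPM with IFNB1 and LPS and 2.4 to 3.1 TPM with LPS in Setd1aDel/+ cells, and 2.9 to 3.5 TPM with IFNB1 and LPS and 2.5 to 2.9 TPM with LPS in wild-type cells, and was not called. The IFNB1 response differed between the genotypes for 0 of 7 members by limma (11.3% of all genes), with 1 at an unadjusted p under 0.05, Klf9 (-0.37 ± 0.12, adjusted p = 0.066 in limma). It was called without replicate 3 of IFNB1 with LPS (-0.41) or replicate 1 of LPS (-0.44) in Setd1aDel/+ cells.

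Between the genotypes 4 of 7 members were called with IFNB1 and LPS (3 higher, 1 lower; 54.2% of all genes) and 4 of 7 with LPS, all higher (42.6% of all genes). Klf6 was higher in Setd1aDel/+ cells by 1.81 ± 0.05 with IFNB1 and LPS and by 1.76 ± 0.05 with LPS. Klf7 was higher by 0.32 ± 0.11 with IFNB1 and LPS, where the groups overlapped, and by 0.59 ± 0.11 with LPS. Klf13, at 3.9 to 4.5 TPM in Setd1aDel/+ cells, against 3.2 to 3.9 TPM in wild-type cells, was higher by 0.21 ± 0.08 with IFNB1 and LPS (0.33 under scaling) and by 0.24 ± 0.08 with LPS. Klf2 was higher with LPS (0.38 ± 0.14, adjusted p = 0.049 in limma) and was not called with IFNB1 and LPS (0.25 ± 0.14), although it was without replicate 1 of wild-type IFNB1 with LPS (0.38). Klf9 was not called with LPS (0.21 ± 0.08), and was called under scaling (0.24) or without replicate 1 of Setd1aDel/+ LPS (0.28). Klf10 in Setd1aDel/+ cells was at 2.0, 3.3 and 3.9 TPM with IFNB1 and LPS and at 1.9, 7.3 and 7.5 TPM with LPS, so that replicate 1 stood low in both. Wild-type cells held 7.3, 6.8 and 7.2 TPM with IFNB1 and LPS and 10.8, 11.2 and 7.8 TPM with LPS, and Klf10 was lower in Setd1aDel/+ cells with IFNB1 and LPS (-1.02 ± 0.35). That call was lost under scaling (-0.92). With LPS the Klf10 value of -0.88 ± 0.35 was not called, and ranged from -1.14 to -0.37 with single libraries left out, with a call without replicate 2 or 3 of Setd1aDel/+ LPS. Without replicate 1 of Setd1aDel/+ LPS the IFNB1 change of Klf10 in those cells was -1.08 and called, against -0.56 ± 0.35 with all libraries. Leaving out single libraries also ended the genotype calls of Klf13, Klf2 and Klf10, and that of Klf7 with IFNB1 and LPS, in at least 4 of 6 cases each. The genotype calls of Klf6 held in every case.

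**Figure D5:**
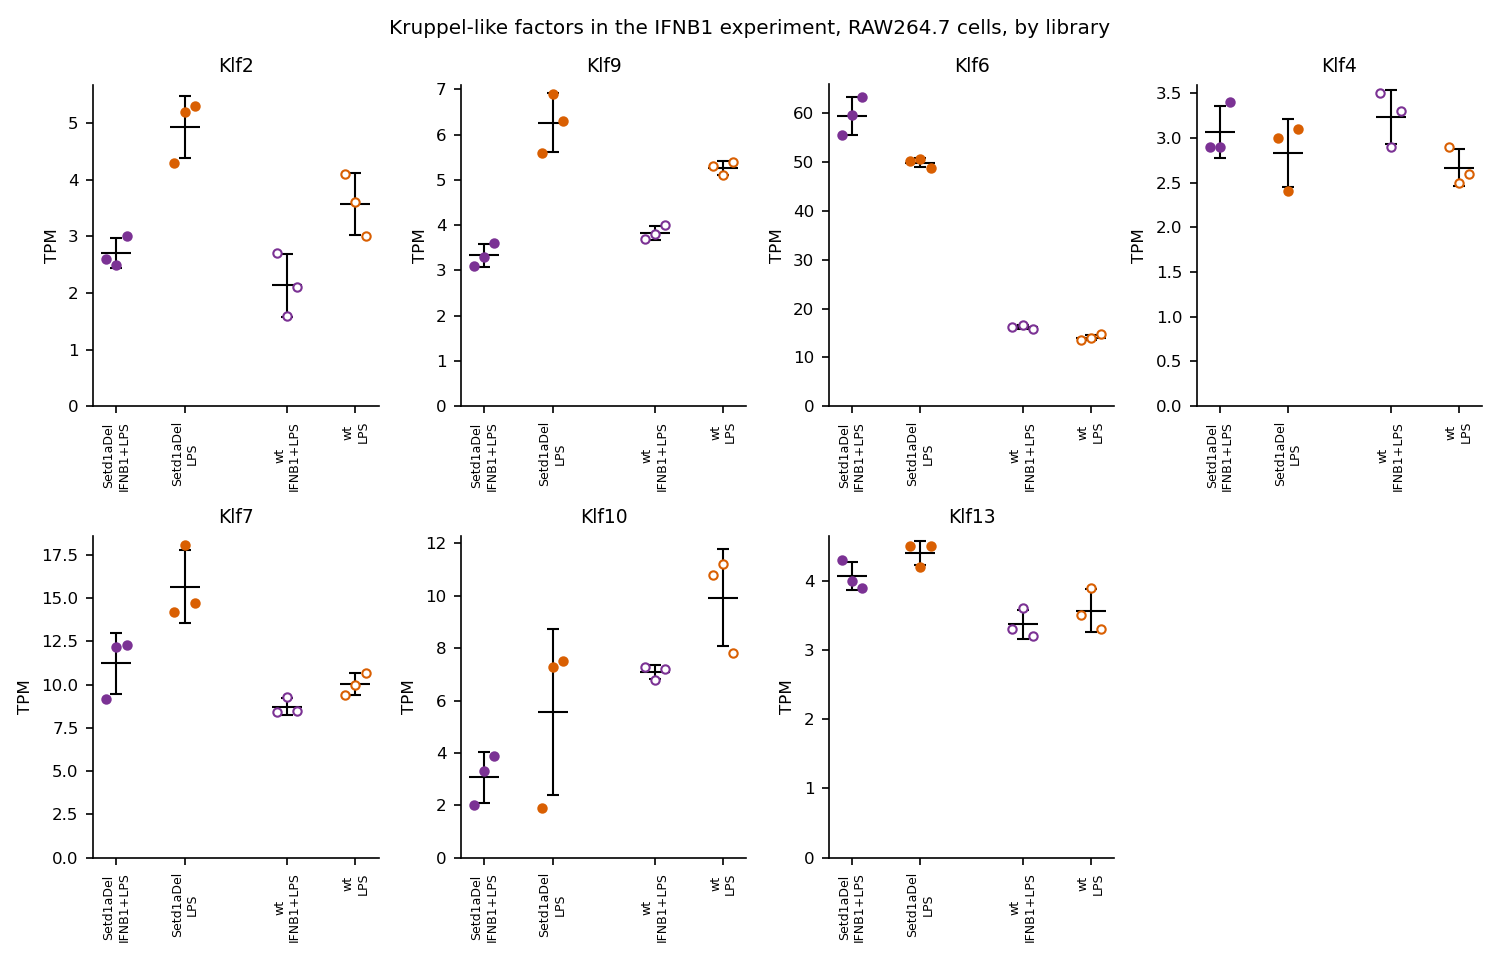
Levels of the 7 members in the interferon experiment, in TPM, with IFNB1 and LPS and with LPS. Filled points are Setd1aDel/+ libraries and open points wild-type libraries, with the mean as a bar and SD over 3 libraries. Klf6 separates the genotypes (with IFNB1 and LPS, 59.5 ± 3.90 TPM in Setd1aDel/+ cells and 16.2 ± 0.404 TPM in wild-type cells), and Klf2 is lower with IFNB1 in both.

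Genes around the KLFs were described by lists. Of the glucocorticoid-induced genes, 6 of 10 tested rose and 2 fell with Dex in cells labelled Setd1bKO, and 6 rose and 2 fell in control cells, with a median of 2.82 in cells labelled Setd1bKO (0.15 over all genes) and 3.03 in control cells (0.18 over all genes). Tsc22d3, the glucocorticoid-induced leucine zipper, rose by 4.31 in cells labelled Setd1bKO and 4.95 in control cells, and Fkbp5, a receptor chaperone, by 3.01 in cells labelled Setd1bKO and 3.21 in control cells. The difference of their Dex responses between these genotypes was -0.63 ± 0.22 for Tsc22d3 and -0.20 ± 0.12 for Fkbp5, not called. Of all genes 39.2% rose and 13.5% fell in cells labelled Setd1bKO, and 44.8% rose and 15.2% fell in control cells. At 16 h in RAW264.7 cells 5 of 11 rose and 6 fell in Setd1aDel/+ cells (29.8% and 14.9% of all genes), and 5 rose and 3 fell in wild-type cells (35.2% and 12.3% of all genes). The median was -0.34 in Setd1aDel/+ cells (0.06 over all genes) and 0.13 in wild-type cells (0.09 over all genes). At 6 h 7 rose and 4 fell in Setd1aDel/+ cells (22.1% and 10.7% of all genes), and 7 rose and 3 fell in wild-type cells (14.7% and 10.6% of all genes). The 6 h median was 1.39 in Setd1aDel/+ cells (0.06 over all genes) and 1.53 in wild-type cells (0.04 over all genes). With Dex alone 8 of 11 rose and 0 fell in each genotype, beside 12% of all genes that rose in each, and the other 3 were not called. For the MEK5-ERK5-MEF2 genes, known to act upstream of Klf2 and Klf4, falls under LPS are given beside those of all genes. In cells labelled Setd1bKO 4 of 6 tested fell and 1 rose (median -0.66, beside -0.37 over all genes, of which 58.2% fell), and in control cells 5 fell and 1 rose (median -0.91, beside -0.49 over all genes, of which 64.7% fell). At 16 h 5 of 6 fell and 0 rose in each RAW264.7 genotype, beside 66.4% of all genes that fell in Setd1aDel/+ cells and 66.1% in wild-type cells. At 6 h 4 of 6 fell and 0 rose in each, beside 49.2% of all genes that fell in Setd1aDel/+ cells and 52.3% in wild-type cells. Of the KLF cofactors and ubiquitin ligases, 8 of 16 fell and 6 rose with LPS in cells labelled Setd1bKO (median -0.10) and 9 fell and 5 rose in control cells (median -0.45), while at 16 h 13 fell and 1 rose in Setd1aDel/+ cells and 12 fell and 2 rose in wild-type cells, with a median of -0.35 in each, beside -0.41 over all genes in Setd1aDel/+ cells and -0.38 in wild-type cells.

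Of the other 6 listed KLFs, Klf3, a repressor that recruits CtBP, rose with LPS by 1.01 ± 0.13 in cells labelled Setd1bKO and by 1.05 ± 0.13 in control cells. Klf11, a close relative of Klf10, fell by 0.74 ± 0.14 in cells labelled Setd1bKO and 0.73 ± 0.14 in control cells. Klf16, which was listed only in the RAW264.7 tables, fell with LPS at 16 h by 1.14 ± 0.10 in Setd1aDel/+ cells and 0.84 ± 0.10 in wild-type cells, and rose with Dex and LPS over LPS by 0.59 ± 0.10 in Setd1aDel/+ cells and 0.61 ± 0.10 in wild-type cells. At 6 h Klf16 was not called higher with Dex and LPS over LPS in either genotype. With Dex alone at 6 h Klf16 changed by -0.69 ± 0.24 in Setd1aDel/+ cells, where the groups overlapped, and -1.47 ± 0.24 in wild-type cells. Klf8 was higher in Setd1aDel/+ cells in all 3 treatments at 16 h, by 0.52 to 0.85, and in both of the interferon experiment, by 0.61 with IFNB1 and LPS and 0.51 with LPS. At 6 h Klf8 was not called higher in Setd1aDel/+ cells in any treatment.

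The genes whose log2(TPM + 1) followed each member most closely were found among genes with a mean of at least 5 TPM, by Pearson's r over libraries that share treatments. Over the 42 libraries of both RAW264.7 Dex experiments and 8007 genes, the closest to Klf9 was Fkbp5 (r = 0.95), to Klf6 Frrs1 (0.95), to Klf4 Rnaset2b (0.96), to Klf7 Atf4 (0.93) and to Klf10 Cenpb (0.97). Over the 18 marrow-derived libraries and 7308 genes, the closest were Asxl1 for Klf9 (0.98), Kremen1 for Klf6 (0.98), Fgd3 for Klf4 (0.98), Lims1 for Klf7 (0.99) and Atf7 for Klf13 (0.86). Among the members, Klf9 and Klf4 had r = 0.86 in marrow-derived cells and Klf7 and Klf10 had r = -0.71 there and -0.88 in RAW264.7 cells. The libraries share groups and treatments, and these values carry no test.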

How the data were processed

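Per the labels, stranded TruSeq libraries were made from polyadenylated RNA, and samples were grouped here by the experiment, genotype and treatment they name. The authors' deposited tables hold TPM per gene. The interferon table has no unit in its header, so its unit was taken from the values. The deposited tables hold as well the authors' log2 fold changes and adjusted p-values, quoted as theirs. The tools listed in the submitters' processing notes are Salmon 0.10.2, R 3.6.0 and DESeq2, with the assembly GRCm38.p6 (mm10) and no roles. A protocol writes another unit for LPS than the sample labels, which were followed. Whether replicates came from separate animals or cultures is not stated, so p-values measure the spread between these libraries, and no batch or date is given.

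Each experiment was fitted with limma 3.58.1 (R 4.3.3, the data.table package at version 1.17.8, figures with matplotlib 3.10.9) on log2(TPM + 1) with 1 mean per group and a trend in eBayes. Genes needed 1 TPM or more in 3 or more libraries, and 9159 (marrow-derived), 8964 (16 h), 8981 (6 h) and 10923 (interferon) were tested. Tests were two-sided and adjusted by Benjamini-Hochberg within each of 46 comparisons. The depth is unknown, since counts are not given, so no counting interval was computed. The fit was checked on simulated data. Same-numbered replicates did not deviate together (correlations from -0.30 to 0.28 over 34 comparisons) and were not taken as pairs. The members, the other listed KLFs, a few anchor genes, up to 4 called genes of each list and the genes most correlated with each member could be named, and 1 such result is not reported here. Members, lists and tests were chosen with earlier results of these data known. The alternatives, whose effect is given in the closing section, changed the pseudocount (0.1), the filter, the scaling (median of ratios), the block (by replicate number) and the groups fitted, or left out 1 library. Coordinates come from GENCODE vM21 on GRCm38 and promoters from RefSeq.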

Additional observations from a re-analysis of the deposited data

Results flagged for a closer look

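Several members had responses that differed between genotypes by the interaction test in limma. In marrow-derived cells the Klf9 response to LPS differed by 0.65 and its response to Dex by -0.91, labelled Setd1bKO minus control. Both values rest on the LPS groups, where Klf9 differed between the genotypes. In RAW264.7 cells at 16 h the LPS response, Setd1aDel/+ minus wild type, differed by 1.05 for Klf7, 0.63 for Klf6, 0.32 for Klf9, -0.37 for Klf10 and -0.64 for Klf4, and the Dex response by -0.34 for Klf9 and -0.37 for Klf4. Of the 16 h Dex calls, that of Klf9 was lost when any of 11 of the 12 libraries was left out, and that of Klf4 when any of 10 was. Both were also lost in a fit of the compared groups alone. Of the 16 h LPS calls, that of Klf9 was lost in such a fit too, and without replicate 1 or 3 of Setd1aDel/+ vehicle. The LPS call of Klf4 was lost at a pseudocount of 0.1 (-0.46). The summed macrophage markers also differed between these genotypes, and their part was not tested.

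The Dex response of RAW264.7 cells at 16 h minus that at 6 h was -1.11 for Klf9 and -0.45 for Klf6 in Setd1aDel/+ cells, and -0.72 for Klf9 and -0.42 for Klf6 in wild-type cells. The length of Dex and the experiment cannot be told apart.

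For Klf6 and Klf4 the Dex response under LPS had opposite directions in marrow-derived control cells (16 h of Dex) and wild-type RAW264.7 cells. That of Klf6 was -0.73 in marrow-derived cells, and 0.18 at 16 h and 0.60 at 6 h in RAW264.7 cells. That of Klf4 was 1.42 in marrow-derived cells and -0.24 at 6 h in RAW264.7 cells. The 16 h Klf6 call was lost under scaling (0.08), and the 6 h Klf4 call when any of 4 of the 6 libraries was left out. Klf4 at 16 h in wild-type cells was not called (-0.14). Without LPS, Dex at 6 h gave Klf4 changes of 0.15, not called, in wild-type cells and 0.34, called, in Setd1aDel/+ cells. The difference between marrow-derived and RAW264.7 cells was not tested.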

How the results depend on the processing

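Over 251 changes of the members, the call, and for called changes the direction, was set against that reported. They stayed as reported in 246 at a pseudocount of 0.1, 246 without a filter and 232 under median-of-ratios scaling. With a replicate block 246 stayed, and in a fit of the compared groups alone 237. Direction was not compared for changes that were not called in either fit. Of 152 called changes, 127 stayed called whichever single library was left out. Under scaling, 2 called changes of Klf4 with LPS turned sign, to 0.11 in marrow-derived control cells and 0.0065 in Setd1aDel/+ cells at 6 h. The Klf4 change with LPS in cells labelled Setd1bKO, not called, ranged up to 0.20 over the alternatives (-0.12 as reported). Of all genes called for LPS in control cells, 50.1% were higher under scaling, against 24.2% as reported.

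Counts of members called are listed here only where they moved by over 1.5 times, or to or from 0. Other counts moved less or stayed, and smaller moves are not listed. The same rule was used for the counts over all genes below. Under scaling it was 3 for LPS in cells labelled Setd1bKO (5 as reported), 2 for both marrow-derived interactions (1 each) and 1 for the 16 h Dex interaction (2). That last count was 1 at a pseudocount of 0.1, 1 with the replicate block and 0 in a fit of the compared groups. Without a filter it was 2 for the interferon experiment's genotype effect with LPS (4) and 1 with IFNB1 and LPS (4). In a fit of the compared groups it was 2 for the genotype effect with IFNB1 and LPS and 2 for the marrow-derived vehicle genotype effect (1).

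Leaving out 1 library gave 0 to 2 members for the marrow-derived vehicle genotype effect, 1 to 2 for the marrow-derived Dex interaction, 0 to 1 for the 16 h Dex interaction, and 1 to 2 and 1 to 3 for the 6 h genotype effects with Dex and LPS and with Dex. In the interferon experiment it gave 1 to 3 for IFNB1 in wild-type cells, 2 to 4 and 1 to 3 for the genotype effects with LPS and with IFNB1 and LPS, and 0 to 1 for the interaction. Over all genes, a fit of the compared groups called 1356 for the 6 h genotype effect with Dex and LPS (2350 as reported), 668 with Dex (1219), 305 for the 6 h interaction of Dex under LPS (475) and 10 for that of Dex alone (26). Leaving out 1 library gave 9 to 42 for this last, 278 to 522 for the one before it, and 553 to 1876 for the interferon interaction (1237 as reported). The causes were not tested. With 3 libraries per group and unknown depth, the precision differs between members. The standard error in the interferon experiment was 0.35 for Klf10 and 0.05 for Klf6.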

Other observations

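Of genes reported in other work as KLF targets, 4 of 11 tested rose and 7 fell with LPS in each genotype of the marrow-derived cells, a share of falls near that of all genes (58.2% fell and 24.9% rose in cells labelled Setd1bKO, and 64.7% fell and 20.6% rose in control cells). Cd14, an LPS co-receptor, rose by 4.57 in cells labelled Setd1bKO and 3.53 in control cells, and Cdkn1a, a cell cycle inhibitor, by 3.97 in cells labelled Setd1bKO and 3.59 in control cells. Zc3h12a, an RNase that limits cytokine transcripts, rose by 3.42 in cells labelled Setd1bKO and 2.90 in control cells. Ccnd1, a cyclin of the early cell cycle, changed by -3.24 in cells labelled Setd1bKO and -3.79 in control cells. Of TGF-beta and SMAD genes, 6 of 11 rose and 4 fell with LPS in cells labelled Setd1bKO, and 4 rose and 5 fell in control cells. In RAW264.7 cells at 16 h 8 of 11 fell and 2 rose in Setd1aDel/+ cells (66.4% and 18.4% of all genes), and 8 fell and 3 rose in wild-type cells (66.1% and 17.4% of all genes).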
